A study of Mus musculus with 17 samples.

Results

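The comparison described here set infarcted mice that had been treated with valsartan (MI+Val, 5 arrays) against sham-operated mice (sham, 6 arrays), 11 of the 17 arrays of the study, and asked what in the surviving myocardium still differed from the sham heart after angiotensin receptor blockade. All animals were female C57/BL6 mice (C57BL/6N in the methods) aged 8 to 10 weeks, and the tissue of every array was the remote, non-infarcted posterior and inferior wall of the left ventricle, collected 4 weeks after surgery. MI+Val mice had undergone ligation of the left anterior descending coronary artery, had passed a selection on ejection fraction by cardiac magnetic resonance at 24 h, and had received valsartan at 1 mg/kg/day in the drinking water. Sham mice were not infarcted and received no drug, and 6 infarcted mice given water only (MI) served as the reference for the untreated state. Infarction and drug both separate MI+Val from sham, so the comparison alone cannot divide one from the other. Each array was of 1 mouse, and members of the comparison were found from the sample labels, with no measured value involved.

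Valsartan blocks the angiotensin II type 1 receptor, through which angiotensin II raises vascular tone, aldosterone release and the growth of cardiac cells, and drives fibroblasts to lay down matrix. After a large infarct the remote wall carries more load. Its fibroblasts deposit collagens and matrix glycoproteins, and its cardiomyocytes return in part to a fetal programme, with natriuretic peptides, skeletal actin and slow myosin, while genes of fatty acid use tend to be expressed less. These are the gene groups that were followed below.

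RNA abundance was read as the brightness of beads on MouseWG-6 v2 BeadChips, and levels are given as normalized log2 intensity, on which 1 unit is a doubling. The 17 arrays had 13929 to 15206 probes with a detection p under 0.01, and the mean correlation of an array with the others of its group was between 0.975 and 0.984. Most markers of ventricular cardiomyocytes that were measured were among the brightest genes in all groups. Myl2, the regulatory light chain of the ventricle, was at the percentile 99.9 of all genes measured, Myl3 at 99.7 and Tnni3 at 94.1. Ryr2, from the same set of markers, was at only 14.9, and Tnnt2 was not measured. The endothelial genes Cdh5 and Pecam1, at percentiles 68.2 and 50.8, were detected on all 17 arrays, while no probe of the endothelial receptor Kdr was detected on any. The atrial light chain Myl7 was detected on 5 of the 17 arrays, namely sham 5 and 6 (signals of 568.5 and 3803.0), MI+Val 4 and 5 (392.2 and 285.1) and MI 5 (1434.6), against 80.9 to 113.8 on the other arrays. The atrial gene Sln was detected on the same number of arrays in each group, 2, 2 and 1, whereas Bmp10 was detected on none. The sham, MI+Val and MI arrays were spread over 3 chips as 1, 1 and 4, then 3, 2 and 1, then 2, 2 and 1. Blood content also varied, since the haemoglobin gene Hba-a1 had signals of 7875.8, 24842.3, 6222.5, 22653.1 and 6316.9 on MI+Val arrays 1 to 5, against 11069.3 to 26831.6 in sham. In tissue RNA, fewer cells of a type and less RNA per cell cannot be told apart.

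One gene passed the test between MI+Val and sham among 8236 genes tested, or 0.0121% (limma, adjusted p under 0.05). In the same model 464 genes passed between MI and sham, 5.63% of those tested, 273 with a higher (3.31%) and 191 with a lower mean (2.32%), and 0 between MI+Val and MI. At an unadjusted p under 0.05 there were 597 genes in MI+Val against sham (7.25%), 309 of them with a higher (3.75%) and 288 with a lower mean (3.5%). At the same limit there were 1622 genes (19.7%) in MI against sham and 760 (9.23%) in MI+Val against MI. A failure to pass in either comparison does not show equality with sham or with MI. MI+Val vs sham and MI vs sham share the 6 sham arrays, so that their values are set side by side below and were not tested against each other. Without the 5 arrays on which Myl7 was detected, which leaves 4 sham and 3 MI+Val arrays, 0 genes passed by limma and 474 had an unadjusted p under 0.05. The methods' t-test called 0 genes after Benjamini-Hochberg adjustment and had 577 at an unadjusted p under 0.05.

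The gene that passed was Fbln2, which encodes fibulin-2, a glycoprotein of the extracellular matrix that binds elastic fibres and basement membranes. It read 9.91, 10.16, 10.05, 9.80 and 10.14 on the 5 MI+Val arrays, against 9.22 to 9.71 (median 9.35) in sham and 10.40 to 10.58 (median 10.44) in MI. The 3 groups did not overlap, with MI+Val in the middle. Fbln2 rose by 0.62 ± 0.10 (SE) on the log2 scale in MI+Val, 1.54-fold (95% CI of the log2 difference 0.41 to 0.83, adjusted p = 0.0365 by limma). In MI it was 1.08 above sham (adjusted p = 1.85e-06). MI+Val lay below MI by 0.46 (95% CI of MI+Val minus MI -0.66 to -0.25), a difference that did not pass the test over all genes (adjusted p = 0.136). Within the chips the difference from sham was 0.61, 0.59 and 0.72. A second probe of Fbln2 gave 0.72. The call depended on single mice. Leaving out sham 3, 4, 5 or 6 or MI+Val 2, 3 or 5 took the adjusted p to between 0.0517 and 0.196, while the difference stayed between 0.58 and 0.69 whichever of the 11 mice was left out. Without the arrays on which Myl7 was detected it was 0.58 (adjusted p = 0.282).

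The 250 bases before the annotated start of Fbln2 are shown because it was the single gene called, with the GC box GGGCGG, on either strand, in capitals (RefSeq, build GRCm38.p6, 5′ to 3′ on the strand of the gene). The box lies 16 bases before the start.
Fbln2, chr6:91212514-91212763, strand +: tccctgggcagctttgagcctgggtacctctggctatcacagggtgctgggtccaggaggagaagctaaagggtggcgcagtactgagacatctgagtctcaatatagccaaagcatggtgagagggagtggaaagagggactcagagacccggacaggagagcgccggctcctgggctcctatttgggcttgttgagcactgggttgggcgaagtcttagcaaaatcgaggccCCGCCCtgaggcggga
The letters GGGCGG are in 32.7% of all 32851 promoter windows of this length, and in 19 of the 37 named genes that have a window in the table. The match is a description of the sequence, not of a binding site.

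**Figure D1:**
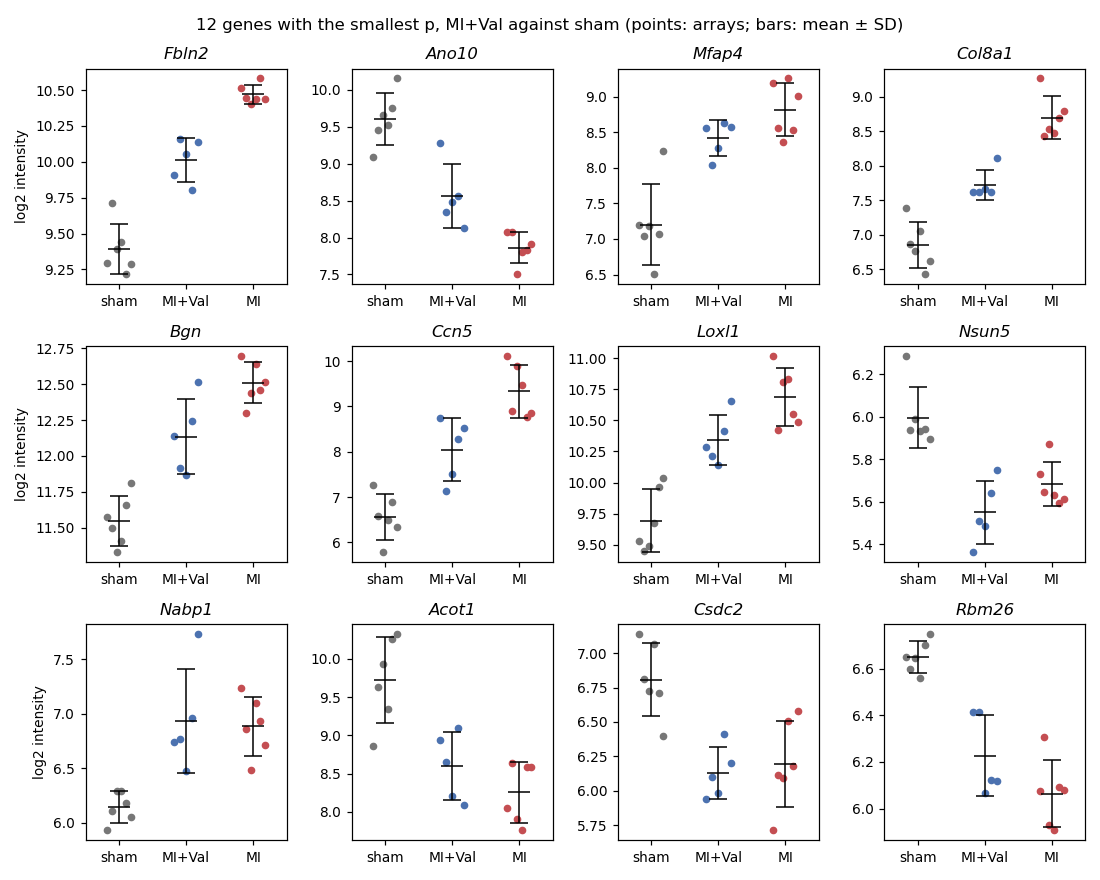
Normalized log2 intensity of the 12 genes with the smallest p between MI+Val and sham, for each array of sham (n = 6), MI+Val (n = 5) and MI (n = 6); points are arrays and bars the mean ± SD. In Fbln2 the 3 groups do not overlap, whereas in Nabp1, Csdc2 and Nsun5 the MI+Val arrays overlap with MI and lie mostly or wholly on one side of sham.

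The plot of the 12 genes with the smallest p shows 7 genes with a higher and 5 with a lower mean in MI+Val than in sham. The choice by p fixes that these genes differ, so that only Fbln2 carries a call and the others are given by their values. Mfap4, a microfibril-associated glycoprotein of elastic fibres, read 8.56, 8.05, 8.28, 8.63 and 8.57 in MI+Val, 6.50 to 8.23 (median 7.13) in sham and 8.37 to 9.26 (median 8.79) in MI. The overlap with sham came from sham 6, at 8.23, which was also the array with the highest signal of Myl7. The difference from sham was 1.22 ± 0.23 (95% CI 0.73 to 1.70, adjusted p = 0.0990), and without sham 6 it was 1.42 with an adjusted p of 0.00254. Whether atrial RNA had a part in the Mfap4 value of sham 6 was not tested.

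Col8a1, a short-chain collagen that is made by vascular and activated stromal cells, read 7.62, 7.62, 7.66, 7.62 and 8.11 in MI+Val. Sham ranged from 6.42 to 7.39 (median 6.81) and MI from 8.43 to 9.26 (median 8.61), so no array of one group reached another group. The difference of MI+Val from sham was 0.87 ± 0.17 (95% CI 0.52 to 1.23, adjusted p = 0.0990) and that from MI was -0.97 (95% CI -1.32 to -0.62). A second probe of Col8a1 gave 0.79, and passed with an adjusted p of 0.0337 when all probes were tested. The MI+Val mean was therefore close to midway between sham and MI.

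Bgn, the small proteoglycan biglycan, read 12.14, 11.92, 11.86, 12.24 and 12.52 in MI+Val against 11.33 to 11.81 (median 11.53) in sham and 12.30 to 12.69 (median 12.49) in MI. All MI+Val arrays lay above all sham arrays, with a difference of 0.59 ± 0.12 (adjusted p = 0.163). Loxl1, a lysyl oxidase that crosslinks elastin, read 10.29, 10.21, 10.14, 10.41 and 10.66, above the sham range of 9.45 to 10.04, with a difference of 0.65 (95% CI 0.36 to 0.94). Ccn5, a matricellular protein of the CCN family, had the largest difference of the genes tested, 1.49 (95% CI 0.84 to 2.14). Its MI+Val arrays were widely spread, at 8.75, 7.14, 7.51, 8.29 and 8.53, and the lowest was below the highest sham value of 7.26. In MI, Ccn5 was 2.78 above sham, so MI+Val was lower than MI by 1.29 (95% CI of MI+Val minus MI -1.94 to -0.64).

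Among the genes with a lower mean, Ano10, a member of the anoctamin family of membrane proteins, read 9.28, 8.35, 8.48, 8.56 and 8.13 in MI+Val, 9.09 to 10.16 (median 9.59) in sham and 7.50 to 8.08 (median 7.87) in MI. MI+Val 1 alone entered the sham range. The difference from sham was -1.05 ± 0.19 (95% CI -1.44 to -0.66, adjusted p = 0.0812). Without MI+Val 1 it was -1.22 with an adjusted p of 0.00501, and without sham 1 it was -1.15 with an adjusted p of 0.0267. These 2 mice are the only sham and MI+Val arrays of the first chip, where the difference was 0.18, against -1.13 and -1.61 on the other chips. Acot1, a cytosolic thioesterase that cleaves fatty acyl-CoA, had a similar division, with 0.07 on the first chip and -1.21 and -1.69 on the others. Over all arrays Acot1 was at -1.13 (95% CI -1.66 to -0.60, adjusted p = 0.163), beside -1.47 for MI minus sham. A second Acot1 probe gave -0.93, and passed with an adjusted p of 0.0426 by limma when all probes were tested.

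Of the genes above, Mfap4, Bgn, Loxl1 and Acot1 had MI+Val values that overlapped with MI, while Fbln2, Col8a1, Ccn5 and Ano10 did not. The genes of the 12 not yet described, Nabp1, Csdc2, Nsun5 and Rbm26, also overlapped with MI. Nabp1, which encodes a single-stranded DNA-binding protein of the damage response, was 0.79 above sham in MI+Val and 0.74 in MI, and the MI+Val arrays at 6.74, 6.76, 6.47, 6.96 and 7.73 all lay above sham (5.93 to 6.29). The interval of MI+Val minus MI was -0.32 to 0.41. Csdc2, an RNA-binding protein with a cold-shock domain, was at -0.68 in MI+Val and -0.61 in MI. For Nsun5, an rRNA methyltransferase, the probe used gave -0.45, beside -0.31 in MI, and the range over the 5 probes of the gene was -0.45 to -0.09. For Rbm26, the probe used gave -0.42, beside -0.59 in MI, and the other 2 probes gave 0.35 and 0.05, so that no direction is given for this gene.

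Collagen genes had the most even pattern. Of 13 measured, 13 had a higher mean in MI+Val than in sham, as had 4065 of the 8236 genes tested. At an unadjusted p under 0.05, 7 of the 13 were higher and 0 lower, against 3.75% and 3.5% of all genes. Of the 13, 0 passed the adjusted test. The median difference was 0.31, against -0.0027 over all genes tested, and 0.18 with the log2 values that the authors deposited. For MI minus sham the median was 0.46, with 5 genes called. Without the arrays on which Myl7 was detected the count was 4 of 13 and the median 0.29, against 3.33% of all genes with a higher mean at that limit.

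**Figure D2:**
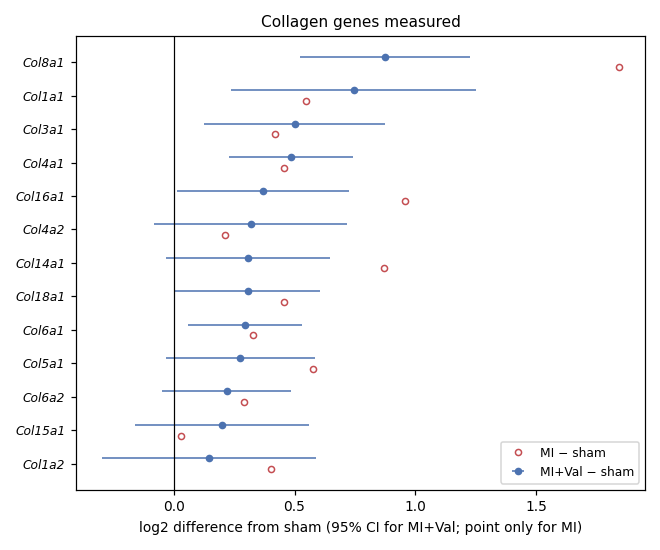
Log2 difference from sham of the 13 collagen genes measured, for MI+Val (filled points with 95% CI) and for MI (open points), ordered by the MI+Val value. In Col8a1, Col16a1 and Col14a1 the MI point lies far to the right of the MI+Val point, whereas in Col1a1, Col3a1 and Col4a1 the MI+Val point is at or beyond that of MI.

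Col1a1 and Col3a1, fibrillar collagens of cardiac scar and interstitium, and Col4a1, a chain of the basement membrane network, were not below MI in MI+Val. For Col1a2 and Col5a1, also fibrillar, the mean was below that of MI. Their differences from sham were 0.15 and 0.28 in MI+Val, beside 0.40 and 0.57 in MI. Col1a1 read 7.28, 7.65, 7.19, 7.60 and 8.15 in MI+Val, 5.93 to 7.70 (median 7.005) in sham and 6.997 to 7.74 (median 7.39) in MI. Its difference from sham was 0.74 (95% CI 0.24 to 1.25) and from MI 0.20 (95% CI -0.31 to 0.71), and the adjusted p against sham was 0.422. These groups overlapped, since sham was itself widely spread. Col3a1 read 7.29, 6.87, 6.90, 6.92 and 6.61 in MI+Val against 5.55 to 6.74 (median 6.57) in sham, a difference of 0.50 (95% CI 0.13 to 0.87), and was 0.42 above sham in MI. The low end of the sham range was 1 array, sham 1, without which the Col3a1 difference was 0.33, and within the chips it was 1.74, 0.36 and 0.08. Col4a1 read 11.64, 11.73, 11.41, 11.75 and 11.55 in MI+Val against 10.79 to 11.42 (median 11.18) in sham, with differences of 0.49 for MI+Val (adjusted p = 0.216) and 0.46 for MI (adjusted p = 0.0270). The interval of MI+Val minus MI was -0.23 to 0.29 for Col4a1. Col16a1 and Col14a1, which associate with fibril surfaces, were 0.37 and 0.31 above sham in MI+Val beside 0.96 and 0.87 in MI. For Col6a1, a microfibrillar collagen of the cell surface, the values were 0.29 and 0.33.

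The matrix glycoproteins and proteoglycans held the 1 call. Of 24 measured, 11 had a higher mean in MI+Val at an unadjusted p under 0.05 and 0 a lower one, against 3.75% and 3.5% of all genes. The median difference was 0.26 beside 0.56 in MI. Without the arrays on which Myl7 was detected 6 of 24 were higher at that limit (3.33% of all genes), and the median was 0.23. Mfap5, a partner of fibrillin in microfibrils, read 9.05, 8.79, 8.80, 9.20 and 9.80 in MI+Val against 7.90 to 8.84 (median 8.25) in sham, a difference of 0.82 (95% CI 0.40 to 1.23), and was 1.02 below MI (95% CI of MI+Val minus MI -1.43 to -0.61). Ccn2, connective tissue growth factor, a target of angiotensin II and TGF-beta signalling, read 11.51, 10.94, 11.19, 11.22 and 12.51 against 10.34 to 11.08 (median 10.60) in sham. Its difference of 0.84 (95% CI 0.36 to 1.31) was smaller than the 1.49 of MI, and MI+Val 5 was the array that reached the MI range of 11.80 to 12.77. Comp, an oligomeric glycoprotein that binds collagen, and Eln, elastin, were 1.06 and 0.67 above sham beside 2.39 and 1.18 in MI. The other 13 genes did not reach that limit, and 5 of the 24 had a lower mean than sham. The lowest was Dcn, the proteoglycan decorin, at -0.23 with an interval that spanned 0 (95% CI -0.87 to 0.41).

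Enzymes that mature, crosslink or degrade matrix were listed apart. Among 13 genes of collagen maturation, 3 had a higher mean at an unadjusted p under 0.05, and the median was 0.07. Among 10 metalloproteinases and inhibitors 4 did, with a median of 0.24. The share of all genes was 3.75%. Pcolce2, an enhancer of procollagen processing, was 0.34 above sham, with -0.49 for MI+Val minus MI, and its second probe gave 0.56 and -0.24. Timp1, the secreted inhibitor of metalloproteinases, read 8.14, 7.14, 7.63, 8.30 and 9.01 in MI+Val, 6.46 to 7.71 (median 6.89) in sham and 8.63 to 9.48 (median 9.12) in MI. MI+Val 2 and 3 lay within the sham range and MI+Val 5 within the MI range. The mean difference of Timp1 was 1.02 from sham (95% CI 0.47 to 1.58) and -1.05 from MI (95% CI -1.61 to -0.49). Mmp2, a gelatinase, was 0.30 above sham in MI+Val and 0.50 in MI.

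Markers of fibroblasts are given beside the matrix genes. Of 6 markers of activated fibroblasts measured, 3 had a higher mean at an unadjusted p under 0.05, against 3.75% of all genes. Their median was 0.39 (0.15 with the deposited log2 values). The mean level of the 6, relative to each gene's mean over all arrays, ranged from -0.77 to -0.28 in sham, -0.24 to 0.28 in MI+Val and 0.14 to 0.78 in MI. Meox1, a transcription factor of stressed fibroblasts, read 7.79, 8.57, 8.45, 8.92 and 8.35 in MI+Val against 7.33 to 8.16 (median 7.52) in sham and was 0.77 higher (95% CI 0.36 to 1.18). Itga11, the collagen-binding integrin alpha11, was 0.48 higher (95% CI 0.16 to 0.81). The third was Comp, which with Fn1 (0.30) is also among the matrix glycoproteins, while Acta2, the actin of myofibroblasts and smooth muscle, was at -0.07 and Ddah1, an enzyme of methylarginine breakdown, at 0.01. Postn, a secreted marker of the same state, was not detected by any of its 3 probes on any array. Of 16 markers of resident fibroblasts 4 had a higher mean at that limit, among them the transcription factor Tcf21 (0.56, 95% CI 0.23 to 0.89), and the median was 0.06, with list levels of -0.27 to -0.06 in sham, -0.17 to 0.08 in MI+Val and 0.02 to 0.34 in MI. Pdgfra, which is expressed by nearly all cardiac fibroblasts, was at -0.07. The part of fibroblast number in the matrix values was not tested.

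The fetal and stress genes of the cardiomyocyte formed another group with a median well above that of all genes. Of 14 measured, 6 had a higher mean in MI+Val at an unadjusted p under 0.05 and 0 a lower one, against 3.75% and 3.5% of all genes. The median was 0.33, beside 0.52 in MI. Of the 14, 3 had a lower mean than sham, the lowest at -0.62. Ankrd1, a stress-responsive cofactor of the sarcomere and nucleus, read 12.06, 12.01, 11.90, 13.22 and 13.57 in MI+Val, 11.23 to 11.79 (median 11.53) in sham and 12.93 to 13.26 (median 13.04) in MI. All MI+Val arrays lay above sham, but MI+Val 1, 2 and 3 were close to it and MI+Val 4 and 5 at or above MI. The mean difference was 1.03 (95% CI 0.54 to 1.52, adjusted p = 0.163), and a second probe of Ankrd1 gave 0.60. Acta1, skeletal alpha-actin, read 12.21, 13.08, 12.15, 13.39 and 13.50 against 10.87 to 12.42 (median 11.79) in sham, a difference of 1.14 (95% CI 0.56 to 1.72), beside 1.99 in MI.

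The natriuretic peptides had sham values that were widely spread. Nppa read 14.34, 14.04, 13.72, 14.41 and 14.60 in MI+Val, 12.71 to 14.49 (median 13.17) in sham and 14.32 to 14.60 (median 14.46) in MI. The highest sham value was sham 6, the array with the most Myl7, and Nppa is an atrial gene. The Nppa difference from sham was 0.84 (95% CI 0.35 to 1.32, adjusted p = 0.296), and 1.06 with an adjusted p of 0.0309 when sham 6 was left out. Nppb read 12.99, 13.72, 13.32, 14.22 and 14.47 in MI+Val against 11.32 to 14.03 (median 13.06) in sham, so MI+Val 4 and 5 lay above sham. Its difference was 0.72 (95% CI -0.05 to 1.49), and 0.38 without sham 2. Myh7, slow beta-myosin, read 6.27, 6.36, 7.04, 7.19 and 8.36 in MI+Val, 6.40 to 6.75 (median 6.55) in sham and 7.24 to 8.79 (median 8.24) in MI. MI+Val 1 and 2 were thus below every sham array and MI+Val 5 was in the MI range. Its mean difference was 0.48 from sham (95% CI -0.16 to 1.12) and -1.09 from MI (95% CI -1.73 to -0.45), and without MI+Val 5 the difference from sham was 0.15. Myh6, the adult fast myosin, was at -0.05 (95% CI -0.40 to 0.30), a value whose sign depended on the probe and on the mice included.

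In the fetal genes MI+Val 4 and 5 were the high arrays, and both lay on the third chip and had detectable Myl7. Sham 5 and 6 lay on the same chip and had higher Myl7 signals. They read 11.45 and 11.62 for Ankrd1, 12.20 and 11.27 for Acta1, 13.21 and 12.91 for Nppb and 6.75 and 6.51 for Myh7. For Nppa they read 12.71 and 14.495, the lowest and the highest sham value. Within the chips, the Ankrd1 difference was 0.58, 0.43 and 1.86, that of Acta1 0.51, 0.89 and 1.71 and that of Nppa 0.60, 0.76 and 0.90. For Nppb it was -0.85, 0.79 and 1.29 and for Myh7 -0.25, 0.17 and 1.14, with a change of sign on the first chip. Without the 5 arrays on which Myl7 was detected, the difference was 0.47 for Ankrd1, 0.76 for Acta1, 0.76 for Nppa, 0.34 for Nppb and 0.03 for Myh7. The list then had 4 of 14 genes higher at an unadjusted p under 0.05 (3.33% of all genes), with a median of 0.11. The part of atrial RNA in these values was not tested.

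**Figure D3:**
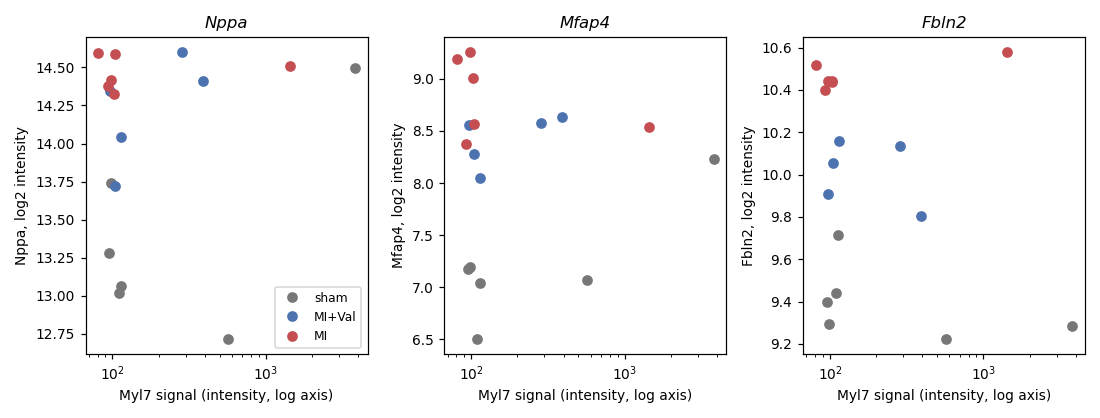
Normalized log2 intensity of Nppa, Mfap4 and Fbln2 against the signal of the atrial gene Myl7 (log axis), 1 point for each of the 17 arrays. Sham 6, farthest to the right, is the highest sham array for Nppa and Mfap4 but not for Fbln2.

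The promoters of 3 of these stress genes are shown with the MCAT element GGAATG, the letters read by TEAD factors in muscle genes, in capitals on either strand. All windows are the 250 bases before the RefSeq start, build GRCm38.p6, 5′ to 3′ on the strand of the gene.
Ankrd1, chr19:36119845-36120094, strand -: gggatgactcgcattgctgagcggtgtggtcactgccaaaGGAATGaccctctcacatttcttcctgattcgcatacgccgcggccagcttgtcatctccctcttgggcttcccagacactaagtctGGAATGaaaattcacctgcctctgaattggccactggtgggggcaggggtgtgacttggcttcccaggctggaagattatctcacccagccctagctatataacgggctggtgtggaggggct
Acta1, chr8:123894776-123895025, strand -: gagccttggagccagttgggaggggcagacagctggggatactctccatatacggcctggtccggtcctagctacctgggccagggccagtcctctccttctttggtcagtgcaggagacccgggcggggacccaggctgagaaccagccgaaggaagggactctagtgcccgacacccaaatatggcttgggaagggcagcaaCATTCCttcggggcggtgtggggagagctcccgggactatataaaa
Nppb, chr4:147985650-147985899, strand +: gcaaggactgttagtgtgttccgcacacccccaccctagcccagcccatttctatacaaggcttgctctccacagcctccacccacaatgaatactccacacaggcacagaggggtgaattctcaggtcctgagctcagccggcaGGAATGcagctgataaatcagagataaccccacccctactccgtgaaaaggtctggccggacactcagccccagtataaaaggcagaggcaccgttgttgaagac
Ankrd1 holds GGAATG 210 and 123 bases before the start, Acta1 holds it on the other strand 46 bases before, and Nppb 105 bases before. It was found for 6 of the 14 fetal and stress genes measured (42.9%), 3 of 11 collagens with a window (27.3%) and 12.6% of all windows, where a gene with several windows was counted once if any held it. Among the members without it was Nppa. The letters TATAAA were likewise in 6 of the 14, against 12.4% of all windows. Also searched in both orientations were CCAAT (6 of the 14, against 33.8% of all windows) and AGATAA (3 of the 14, against 9.99%). TGACTCA was in 2 of the 14 (4.46% of all windows), GAANNTTC in 4 (6.69%) and GGGCGG in 5 (32.7%). Every motif searched was thus in a larger share of the 14 genes than of all windows, so that this was not particular to GGAATG. No overlap of one motif with another was counted, and letters alone say nothing of binding.

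Genes of the mature contractile apparatus showed no such values. Of 17 adult sarcomere genes, 0 had an unadjusted p under 0.05, with a median of 0.01. Of 14 calcium-handling genes, Casq2, the calcium store protein of the sarcoplasmic reticulum, was at 0.23 (95% CI 0.01 to 0.45) and Hrc, its histidine-rich partner, at -0.21 (95% CI -0.40 to -0.02). In MI these were 0.37 and -0.44. Among 17 ion channels and pumps 1 had a higher and 3 a lower mean at that limit, against 3.75% and 3.5% of all genes. Hcn2, a pacemaker channel that is expressed in ventricle under stress, read 8.33, 8.30, 8.59, 8.19 and 8.41 against 7.71 to 8.22 (median 7.91) in sham. Its difference was 0.44 (95% CI 0.20 to 0.68) in MI+Val and 0.35 in MI, and MI+Val 4 alone lay within the sham range. Kcnj3, a subunit of the muscarinic potassium channel, was at -0.37.

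Within the renin-angiotensin system, 11 genes were measured, with a median of -0.0042 and 1 gene at an unadjusted p under 0.05 (7.25% of all genes). That gene was Ace, the angiotensin-converting enzyme, which read 7.07, 7.14, 6.95, 6.92 and 7.67 in MI+Val against 6.46 to 7.03 (median 6.84) in sham and 7.13 to 7.89 (median 7.57) in MI. The difference was 0.36 from sham (95% CI 0.03 to 0.70, adjusted p = 0.645) and -0.38 from MI (95% CI -0.71 to -0.04). Without MI+Val 5 the difference of Ace from sham was 0.23. Agtr1a, the receptor that valsartan blocks, read 10.22, 10.15, 10.09, 10.08 and 10.04, within the sham range of 10.10 to 10.33 or just below it. Its difference was -0.10 from sham (95% CI -0.29 to 0.08), beside -0.31 in MI (adjusted p = 0.0377). Agt, angiotensinogen, was at -0.32 (95% CI -1.01 to 0.38) and was detected on 3 of the 5 MI+Val arrays, so its level there is partly a bound, and with a mouse left out its value ran from -0.48 to -0.15. Cma1, mast cell chymase, was too dim to be measured. The median over 14 genes of TGF-beta and activin signalling was 0.0027. At an unadjusted p under 0.05, 1 was higher and 1 lower (3.75% and 3.5% of all genes). They were Fstl1, a secreted follistatin-like protein, at 0.42 (95% CI 0.12 to 0.73) and Smad2, a transducer of TGF-beta, at -0.26 (95% CI -0.46 to -0.05).

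Genes of fatty acid oxidation were split. Of 32 measured, 8 had a lower mean in MI+Val at an unadjusted p under 0.05 and 0 a higher one, against 3.5% and 3.75% of all genes. The median was nevertheless -0.05, beside -0.17 in MI. Without the arrays on which Myl7 was detected 3 of 32 were lower (2.43% of all genes) and 1 higher (3.33% of all genes) at that limit. The 8 were Acot1, Echs1, Etfb, Ces1d, Acot7, Slc27a1, Crat and Hadha, which hydrolyse, carry, activate or oxidise fatty acids. Echs1, the enoyl-CoA hydratase of the mitochondrial spiral, was at -0.53, but its other probe gave -0.07. Ces1d, a carboxylesterase, was at -0.61 beside -1.35 in MI, and Hadha at -0.64 beside -0.51. Of 16 genes of branched-chain amino acid catabolism 15 had a lower mean, beside 4171 of the 8236 genes tested. Of these 16, 0 reached that limit, and their median was -0.08. Of the 16, 8 had a lower mean without the arrays on which Myl7 was detected, and the median was then -0.010. Slc2a4, the insulin-responsive glucose transporter GLUT4, read 10.54, 11.14, 10.92, 10.71 and 10.79 against 10.89 to 11.34 (median 11.20) in sham, a difference of -0.34 (95% CI -0.58 to -0.10), beside -0.53 in MI.

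In the respiratory chain, 2 of 66 genes reached an unadjusted p under 0.05, in opposite directions, a share below the 7.25% of all genes. Ndufb5, a subunit of complex I, was at 0.30 in MI+Val and -0.06 in MI, and Uqcrq, a subunit of complex III, at -0.32 and -0.31. Sdhc, a membrane anchor of complex II, was at -0.19. Its value was 0.27 when dim probes were kept, but the probe that then stood for it was detected on 0 arrays. Gstm1, a glutathione transferase, read 10.50, 10.49, 10.67, 10.51 and 10.52 in MI+Val, all below the sham range of 10.75 to 10.92, with a difference of -0.31 (95% CI -0.50 to -0.11) beside -0.51 in MI. Gpx1, a glutathione peroxidase, read 12.37, 12.15, 12.15, 12.10 and 12.20, all above the sham range of 11.74 to 11.99, with a difference of 0.32 beside 0.63 in MI. Both lay between sham and MI. The whole list of 37 glutathione and antioxidant genes had a median of -0.02.

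**Figure D4:**
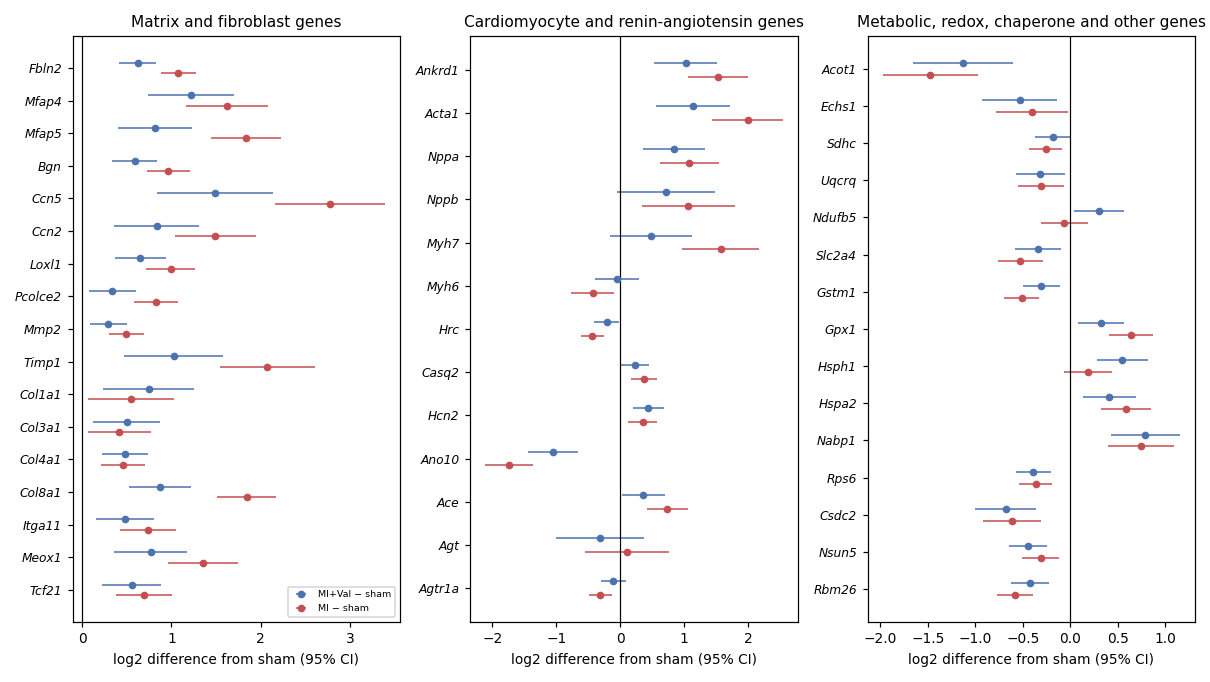
Log2 difference from sham with 95% CI for MI+Val and MI, for 45 of the named genes in 3 functional groups. Most matrix and fetal genes have an MI+Val interval to the right of 0 and an MI point farther out. Several genes, among them Hsph1, Ndufb5, Col1a1 and Hcn2, have their larger value in MI+Val.

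Chaperones had a higher median in MI+Val (0.16) than in MI (0.04). Of 14 measured, 4 had a higher mean than sham at an unadjusted p under 0.05 and 0 a lower one, against 3.75% and 3.5% of all genes. Hsph1, a nucleotide exchange factor of the Hsp70 machine, read 9.93, 9.45, 9.60, 9.59 and 9.90, above all sham arrays (8.88 to 9.41, median 9.19), while MI ran from 9.10 to 9.60 (median 9.33). Hsph1 was 0.55 above sham (95% CI 0.28 to 0.81, adjusted p = 0.163 by limma). It was 0.36 above MI (95% CI 0.10 to 0.63), which did not pass the test over all genes (adjusted p = 0.368 by limma). Hspa1a, the inducible Hsp70, was 0.89 above sham (95% CI 0.24 to 1.55) beside 0.36 in MI, and Hspa8, the constitutive form, 0.42 (95% CI -0.01 to 0.85) beside -0.05. Hspa2 was at 0.41 beside 0.59 in MI, and its second probe gave 0.21 and 0.35. The plot of intervals shows the MI+Val point of Hsph1 beyond that of MI, unlike most matrix and fetal genes. Without the arrays on which Myl7 was detected 3 of 14 were higher at that limit (3.33% of all genes), the median was 0.099 and the Hsph1 difference was 0.51.

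Rps6, a protein of the small ribosomal subunit, read 10.80, 10.94, 11.10, 11.12 and 11.11 in MI+Val, below all sham arrays (11.21 to 11.50, median 11.43), and was at -0.39 in MI+Val (95% CI -0.58 to -0.21, adjusted p = 0.163) and -0.37 in MI. It was the only one of 44 cytosolic ribosomal genes at an unadjusted p under 0.05, and the median of the list was -0.01. Of 11 cell cycle genes, 2 had a higher mean at an unadjusted p under 0.05 and 0 a lower one, against 3.75% and 3.5% of all genes. The median of these 11 was 0.05, beside 0.34 in MI, and 3 had a lower mean than sham. The 2 were Mcm2, a subunit of the replicative helicase, at 0.42 (95% CI 0.14 to 0.69), and Ccnd1, cyclin D1, at 0.26 (95% CI 0.02 to 0.50). Unlike the list median, each was close to its MI value, 0.45 and 0.19. Igf2, a fetal growth factor, was at -0.46 beside -0.73 in MI, and Igfbp7, a secreted IGF-binding protein, at 0.37 beside 0.52. Anxa3, a calcium-dependent phospholipid-binding protein, was at 0.28 beside 0.61.

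Macrophage markers had a higher mean in MI+Val than in sham for 20 of 21 genes, beside 4065 of the 8236 genes tested. Of the 21, 3 were higher at an unadjusted p under 0.05 (3.75% of all genes), and the median was 0.24 beside 0.53 in MI. The level of the list ranged from -0.55 to -0.05 in sham, -0.15 to 0.04 in MI+Val and 0.01 to 0.67 in MI. Csf1r, the receptor for the macrophage growth factor CSF1, read 7.92, 8.00, 7.97, 8.35 and 8.49 against 7.36 to 8.20 (median 7.73) in sham, a difference of 0.38 (95% CI 0.06 to 0.69). Lyz1, lysozyme, was at 0.30 beside 0.62 in MI, and its sequence is close to that of Lyz2. H2-DMb1, which loads peptides on class II molecules, was at 0.49 in MI+Val and in MI. Ccl11, the chemokine eotaxin, was at -0.41 (95% CI -0.69 to -0.14). It was detected on 6 sham, 2 MI+Val and 2 MI arrays, so its level in MI+Val and MI is partly a bound. Without the arrays on which Myl7 was detected, 0 of 21 macrophage genes were at that limit and the median was 0.29.

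Endothelial and smooth muscle markers gave 0 of 17 and 0 of 11 genes at an unadjusted p under 0.05, with medians of -0.0023 and -0.04. Between MI+Val and sham, 64 genes (0.777%) had values that did not overlap, 34 with MI+Val higher (0.413%) and 30 with MI+Val lower (0.364%). Among the 56 named genes these were 12, namely Fbln2, Col8a1, Bgn, Loxl1, Nabp1, Ankrd1, Gpx1 and Hsph1 above sham and Nsun5, Rbm26, Gstm1 and Rps6 below, but most were named for a small p in this comparison, so that nothing follows from that number.

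**Figure D5:**
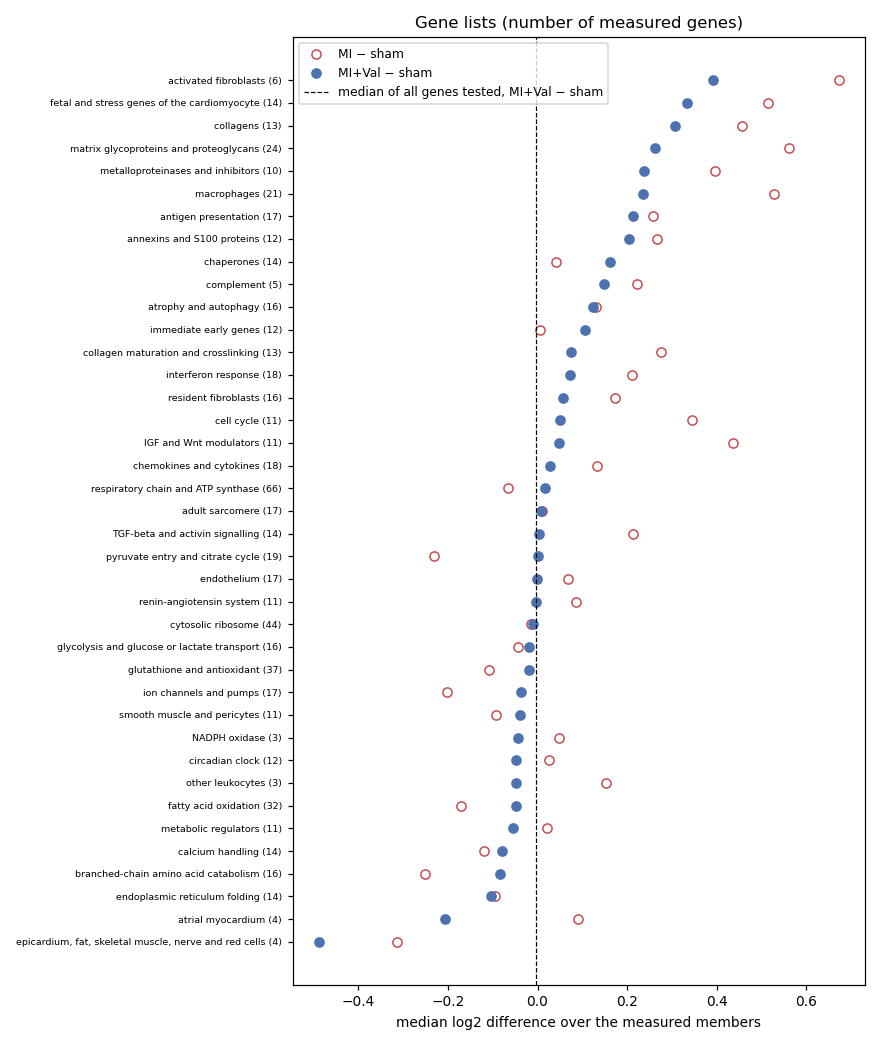
Median log2 difference from sham of each of the 39 gene lists, with the number of genes measured, for MI+Val (filled) and MI (open); the dashed line is the median of all genes tested in MI+Val. Activated fibroblast, fetal, collagen and matrix lists stand farthest to the right in MI+Val, and the chaperone list lies farther right in MI+Val than in MI.

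The plot of list medians orders all 39 lists by their MI+Val value. In the main fit the highest median among them was that of activated fibroblasts (0.39), followed by the fetal genes, collagens, matrix glycoproteins and metalloproteinases. This order depended on the setting. Without the arrays on which Myl7 was detected, the fetal median (0.11) was below those of collagens (0.285) and matrix glycoproteins (0.23). With the deposited log2 values the median of activated fibroblasts was below that of collagens. Lists of mitochondrial and contractile genes lay close to the median of all genes. The list with the lowest median, -0.49 over 4 genes, was that of epicardium, fat, skeletal muscle, nerve and red cells, of which Hba-a1 was at -0.54 and Alas2, of haem synthesis, at -0.55. These values go with the low haemoglobin signals of MI+Val 1, 3 and 5.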

How the data were processed

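RNA of 17 mice (6 sham, 6 MI, 5 MI+Val), 1 array each, was analysed in groups given by the sample labels. The authors deposited raw probe brightness as an intensity, neither background-corrected nor normalized, with a detection p-value against negative control beads. The authors also deposited log2 values, made with lumi under R 3.0.1 by variance stabilization and robust spline normalization, which served as an alternative. Background correction, an offset of 16 and quantile normalization were done with neqc of limma 3.58.1 (R 4.3.3). The offset shrinks differences of dim genes. A probe had to carry 1 gene symbol in the platform annotation and a signal whose percentile 33 over arrays reached 125 (11897 probes). For each of 8236 genes the probe that varied most, by interquartile range, was used, which favours large differences. A linear model of the 3 groups without covariates gave all comparisons, with empirical Bayes moderation (19.33 degrees of freedom) and Benjamini-Hochberg adjustment over all genes at 0.05. The number of arrays limits the precision. The model was tested on simulated data.

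The members and gene lists (39) were chosen with earlier results of these data known. Named genes (56) were the 12 with the smallest p, since fewer than 6 passed, then the 2 members of each list with the smallest p where that was under 0.05, genes of remodelling and of the renin-angiotensin system set as anchors, and the called genes with the smallest p against MI. Lists were described by counts and medians, with no test. Of the named genes, 37 had a RefSeq promoter window. Alternatives changed the correction of background, the normalization, the filters and choice of probes, the terms for chip, replicate number or array weight, the arrays fitted and the test, and left out each mouse. Leaving out the 5 arrays on which Myl7 was detected was chosen after seeing the data. Plots were made in matplotlib 3.10.9 (Python 3.11.15).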

Additional observations from a re-analysis of the deposited data

Results flagged for a closer look

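Among the named genes, 168 groups of 5 or 6 arrays were checked for a value that stood far from the rest of its group by Dixon's criterion, which chance meets in about 1 of 20 groups, and 11 did. In MI+Val, Col8a1 of mouse 5 (8.11, the others 7.62 to 7.66) and Gstm1 of mouse 3 (10.67, the others 10.49 to 10.52) stood high. In sham, mouse 1 stood apart in Nsun5 (6.28), Myh6 (11.38) and Col3a1 (5.55), and mouse 2 in Ndufb5 (11.09), Ccnd1 (10.80) and Hspa2 (8.57). Tcf21 of sham 6 (7.59) and Echs1 of sham 3 (7.30) were the other sham values. In MI, Agt of mouse 1 was low (4.73, the next 6.21).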

How the results depend on the processing

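The number of genes that passed between MI+Val and sham (1) was 2 with no background correction, 2 when arrays were scaled to their 75th percentile, 2 with the brightest probe of each gene, 3 with all probes tested, 3 with array weights, 4 with chip as a fixed block and 6 with the deposited log2 values, and Fbln2 was among the calls in each of these. It was 0 with a detection filter, with only the arrays of both groups, with the methods' t-test and without the 5 arrays on which Myl7 was detected, and 107 by the methods' t-test at an unadjusted p under 0.01 and a fold of at least 1.2. Leaving out each mouse gave 0 to 3. Between MI and sham (464) the number was 187 with chip as a fixed block, 197 without the arrays on which Myl7 was detected, and 259 (without sham 5) to 521 with a mouse left out. Between MI+Val and MI (0) it was 10 with no background correction, 10 with the deposited values, 2 when arrays were scaled to their 75th percentile, 1 with the brightest probe, 1 with all probes tested, 7 with array weights, 4 without the arrays on which Myl7 was detected, 153 by the methods' t-test at its own limits, and 0 to 14 with a mouse left out, the highest without MI+Val 5. The counts of 107 and 153 were taken over all 8236 genes. The paper applied these limits only to genes that had first passed a permutation F-test. With the replicate number as a block, 0 genes passed between MI+Val and sham. The same number in sham and MI+Val did not pair arrays, since of 5 pairs 1 correlated above 0.1, and 2 MI+Val arrays correlated best with their own number. The median of a list moved by more than the spread between mice for activated fibroblasts (0.15 with the deposited values), atrophy and autophagy (0.041 with the deposited values and 0.039 with the brightest probe), and, without the arrays on which Myl7 was detected, for branched-chain amino acid catabolism (-0.010) and the circadian clock (-0.39). The sign turned for Rbm26 (0.054) and Myh6 (0.049) with the brightest probe, and for Myh6 within a range of -0.19 to 0.016 with a mouse left out. It also turned for Sdhc (0.27) when dim probes were kept, where a probe detected on 0 arrays stood for it. The causes of these differences were not tested. With 5 and 6 mice, most differences of the size described could not be told from no difference.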

Other observations

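Probes that the platform annotation does not name with a single gene add no call. Of 1712 such probes past the filter, 140 (8.18%) had an unadjusted p under 0.05 between MI+Val and sham and 0 passed the adjustment over 13609 probes (limma).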
